A study of Danio rerio with 4 samples.

Results

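In the posterior cardinal vein, the large trunk vein of the zebrafish embryo, ventral endothelial cells were set against dorsal ones in 7 genes of the response to growth factor signals. These were 2 genes for phosphatases that switch off the kinase ERK (DUSP5 and DUSP6), 3 genes for subunits of the transcription factor AP-1 (JUNB, FOS and FOSL2) and 2 antiproliferative genes of the BTG family (BTG1 and BTG2). DUSP5 was taken by its Ensembl identifier and the others by symbol, and each matched 1 row among 32434 gene rows. The 7 genes were picked with their ventral and dorsal values already known. Their differences between the sides are therefore given as a description, with no test.

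All embryos were Tg(fli1:gal4;uasKaede) at 24 hours post fertilization, so endothelial cells made Kaede, which changes its fluorescence to red under light, by way of the fli1 promoter. In the ventral group the floor of the vein was photoconverted, and in the dorsal group the roof. Red cells of 6 embryos per group were sorted, and 2 libraries per side were made by CEL-Seq, which counts 3' ends of transcripts. Separate embryo pools for the 2 libraries of a side are not stated in the labels, so the spread between them may be technical.

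DUSP5 and DUSP6 remove the phosphates that activate ERK, DUSP5 in the nucleus and DUSP6 in the cytoplasm, and both genes are themselves switched on by ERK signalling, which makes them a negative feedback. FOS and JUN family proteins pair up as AP-1, and their genes are immediate early genes that respond within minutes to growth factors, flow and stress, cell dissociation included. BTG proteins bind the CCR4-NOT deadenylase, which shortens the poly(A) tails of messenger RNAs, and they restrain cell division. In endothelial cells, VEGF receptors are a main input to ERK.

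The summed gene counts were 108405 and 79527 for ventral libraries 1 and 2, against 115876 and 51376 in dorsal libraries 1 and 2. No gene of the whole table exceeded 1024 counts, the number of distinct identifiers of 5 bases, so the values were read as counts of identifiers with a ceiling. The 7 genes had at most 70 counts in any library and lay far below that ceiling. The expression filter of edgeR kept 1399 genes, and 6 of them, 0.429%, passed an adjusted p threshold of 0.05 in edgeR's quasi-likelihood test, all higher in the ventral libraries. None of the 7 genes was among those 6. Without ventral library 1, ventral library 2 or dorsal library 1 that count of higher genes stood at 12, 46 or 0. Without dorsal library 2 it stood at 7.

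The ERK phosphatase genes had the largest ventral to dorsal ratios of the 7. DUSP6 (ENSDARG00000070914) gave 35 and 24 counts in the ventral libraries, against 8 and 6 in the dorsal libraries. In counts per 1000000 gene counts (CPM) that was 323 and 302 in ventral, against 69.0 and 117 in dorsal libraries. The ventral libraries lay close together, and the lower of them was 2.58-fold above the higher dorsal one. DUSP6 averaged 312 ± 14.9 CPM in ventral and 92.9 ± 33.8 CPM in dorsal libraries (SD, n = 2 each), a log2 fold of 1.87 ± 0.42 (SE) in the edgeR fit. The pooled counts of 59 against 14 gave a ratio of 3.75, and its 95% exact binomial interval of 2.07 to 7.27 covers counting error only.

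DUSP5 (ENSDARG00000019307) gave 23 and 11 counts in the ventral libraries, against 4 and 4 in the dorsal libraries. Ventral library 1 was the high one, at 212 CPM against 138 CPM in ventral library 2. The dorsal libraries stood at 34.5 and 77.9 CPM, so the groups did not overlap, although equal dorsal counts came from libraries of unequal depth. DUSP5 averaged 175 ± 52.2 CPM in ventral and 56.2 ± 30.6 CPM in dorsal libraries (SD, n = 2 each), a log2 fold of 1.85 ± 0.61 (SE). Its pooled ratio of 34 to 8 counts was 3.78, with a counting interval of 1.72 to 9.46.

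The AP-1 genes covered a wider range. JUNB (ENSDARG00000074378), whose product is a partner of FOS proteins in AP-1, gave 37 and 30 counts in the ventral libraries, against 12 and 7 in the dorsal libraries. At 341 and 377 CPM in ventral, against 104 and 136 CPM in dorsal libraries, it had a narrow spread on both sides, and the lower ventral library was 2.51-fold above the higher dorsal one. The means were 359 ± 25.4 CPM in ventral and 120 ± 23.1 CPM in dorsal libraries (SD, n = 2 each), a log2 fold of 1.63 ± 0.37 (SE). FOSL2 (ENSDARG00000040623), a slower FOS family member, gave 31 and 17 counts in ventral, against 11 and 4 in dorsal libraries. That was 286 and 214 CPM in ventral, against 94.9 and 77.9 CPM in dorsal libraries, again without overlap, with a log2 fold of 1.51 ± 0.42 (SE).

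FOS (ENSDARG00000031683), the transient founding member of the family, was the AP-1 gene with the smallest ventral to dorsal ratio. It gave 70 and 38 counts in the ventral libraries, against 41 and 9 in the dorsal libraries. At 646 and 478 CPM in ventral, against 354 and 175 CPM in dorsal libraries, the sides did not overlap, but the dorsal libraries differed 2.02-fold from each other, about as much as the sides. FOS averaged 562 ± 119 CPM in ventral and 265 ± 126 CPM in dorsal libraries (SD, n = 2 each), a log2 fold of 1.02 ± 0.31 (SE). Of the dorsal libraries, library 1 was the higher one for FOS and FOSL2, and library 2 for the other 5 genes.

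The BTG genes lay with FOS at the low end of the ratios. BTG1 (ENSDARG00000027249) gave 53 and 29 counts in the ventral libraries, against 20 and 14 in the dorsal libraries. In CPM that was 489 and 365 in ventral, against 173 and 273 in dorsal libraries, so the lower ventral library was 1.34-fold above the higher dorsal one. The means were 427 ± 87.9 CPM in ventral and 223 ± 70.6 CPM in dorsal libraries (SD, n = 2 each), a log2 fold of 1.02 ± 0.36 (SE). BTG2 (ENSDARG00000020298), which is also a target of p53, gave 64 and 54 counts in ventral, against 35 and 22 in dorsal libraries. At 590 and 679 CPM in ventral, against 302 and 428 CPM in dorsal libraries, the sides did not overlap. The lower ventral library was 1.38-fold above the higher dorsal one, while the dorsal libraries differed 1.42-fold from each other. Its log2 fold of 0.83 ± 0.29 (SE) was the lowest of the 7, and its pooled counts of 118 against 57 gave a ratio of 1.84 (counting interval 1.33 to 2.57).

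**Figure D1:**
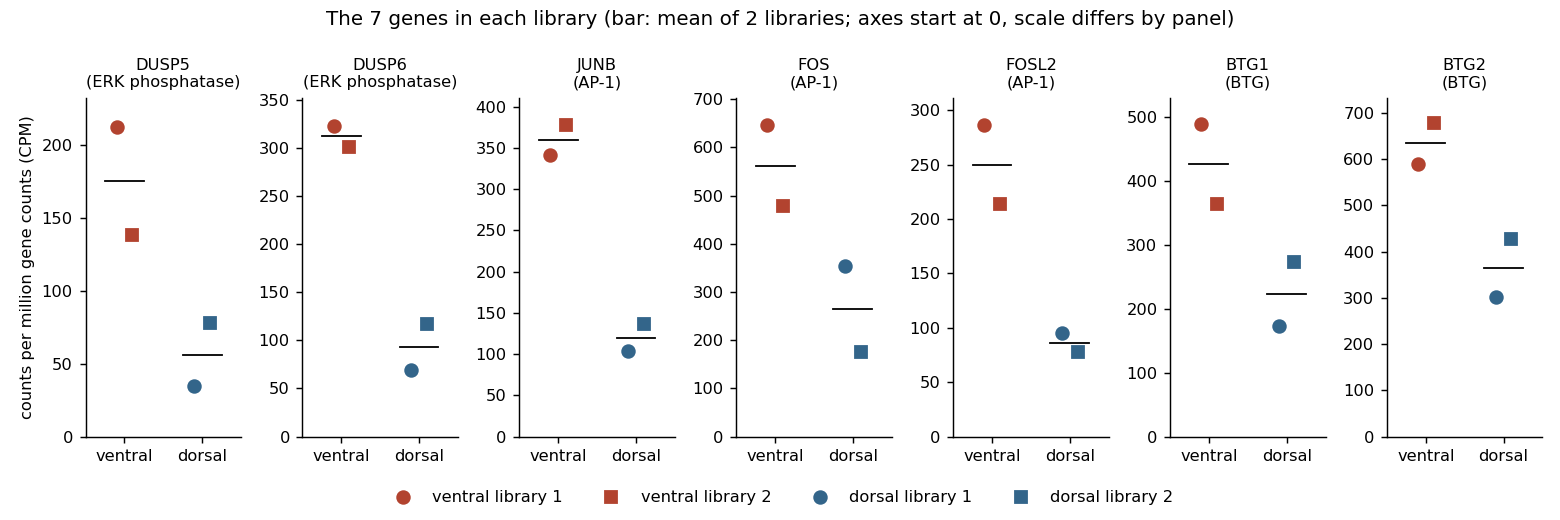
Counts per 1000000 gene counts (CPM) of the 7 genes in each library, with ventral libraries in red and dorsal libraries in blue and a bar at the mean of 2 libraries. Both ventral libraries lie above both dorsal libraries in every panel, with the widest separation for DUSP6 and JUNB and the narrowest for BTG1 and FOS.

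All 7 genes thus had both ventral libraries above both dorsal libraries in CPM. Of all 1399 genes tested, 272, or 19.4%, did so. Since the genes were picked on this contrast, nothing is read from that count. All 7 passed the expression filter. It asked for 106 CPM in 2 libraries, which DUSP5, DUSP6, JUNB and FOSL2 reached in fewer than 2 dorsal libraries. These 4 genes were therefore tested because of their ventral values. Ordered by log2 fold among the 1399 genes, DUSP6 ranked 22nd, DUSP5 24th, JUNB 31st, FOSL2 42nd, FOS 95th, BTG1 97th and BTG2 133rd. No neighbours in that order differed by more than the combined SE of both. The widest step, of 0.49 on the log2 scale, lay between FOSL2 and FOS, with a combined SE of 0.52.

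**Figure D2:**
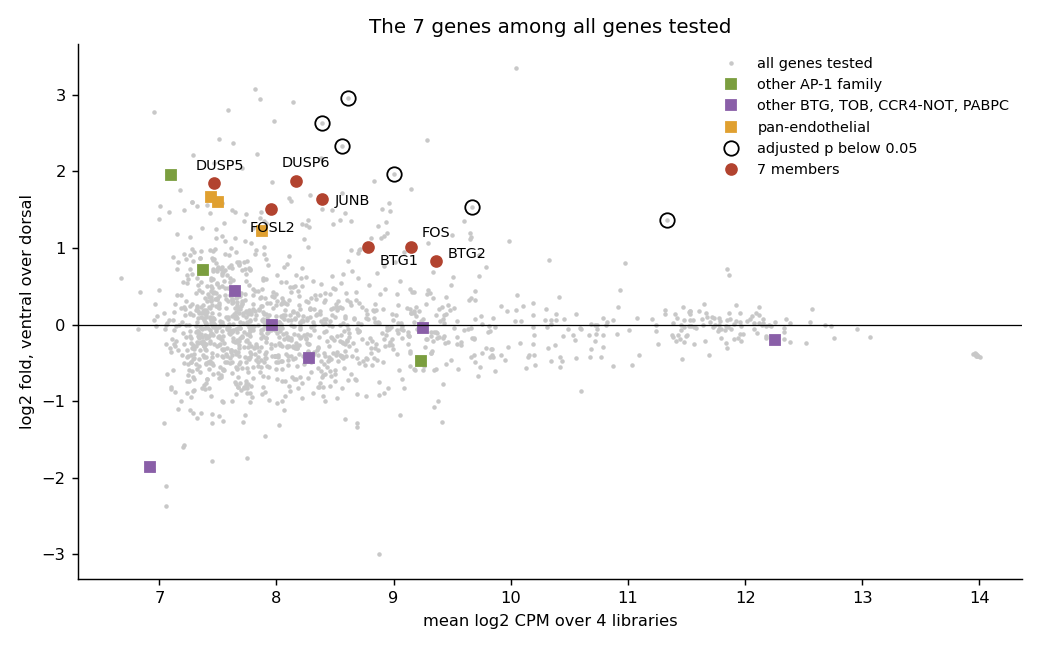
Log2 fold, ventral over dorsal, against mean log2 CPM for all genes tested, with the 7 genes in red, other genes of their families and pan-endothelial genes in colour and a ring around the 6 genes with an adjusted p below 0.05. The 7 genes lie between 0.83 and 1.87, below the ringed genes of like abundance. The pan-endothelial genes plvapb, etsrp and she lie at 1.22, 1.66 and 1.60. These pan-endothelial genes reached the filter's 106 CPM in fewer than 2 dorsal libraries, so they were tested because of their ventral values.

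Ratios between genes of 1 library do not depend on how libraries are scaled. DUSP6 counts per BTG2 count were 0.547 and 0.444 in the ventral libraries, against 0.229 and 0.273 in the dorsal libraries. JUNB counts per BTG2 count were 0.578 and 0.556 in ventral, against 0.343 and 0.318 in dorsal libraries. Both ratios separated the sides. Of the genes picked on this contrast BTG2 had the lowest log2 fold, and DUSP6 and JUNB were tested because of their ventral values. Nothing further is therefore read from that separation. Within each role the ratios overlapped. DUSP6 per DUSP5 stood at 1.52 and 2.18 in ventral, against 2.0 and 1.50 in dorsal libraries, and BTG2 per BTG1 at 1.21 and 1.86 in ventral, against 1.75 and 1.57 in dorsal libraries. FOS per JUNB was 1.89 and 1.27 in ventral, against 3.42 and 1.29 in dorsal libraries, with dorsal library 1 apart from the other 3 libraries.

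Summed over roles, the ERK phosphatases had 58 and 35 counts in ventral, against 12 and 10 in dorsal libraries, a pooled ratio of 3.76 per gene count. The AP-1 genes had 138 and 85 in ventral, against 64 and 20 in dorsal libraries, a ratio of 2.36. The BTG genes had 117 and 83 in ventral, against 55 and 36 in dorsal libraries, a ratio of 1.96. Of the 7-gene sum, the phosphatases made up 18.5% and 17.2% in ventral, against 9.16% and 15.2% in dorsal libraries. The 95% Wilson interval of dorsal library 1, from 5.32% to 15.3%, still overlapped that of ventral library 1, from 14.6% to 23.2%. AP-1 took 44.1% and 41.9% in ventral, against 48.9% and 30.3% in dorsal libraries, which overlapped. BTG took 37.4% and 40.9% in ventral, against 42.0% and 54.5% in dorsal libraries. The phosphatase share was thus higher and the BTG share lower in both ventral libraries than in either dorsal one, while the AP-1 share differed most between the 2 dorsal libraries. The genes were picked on this contrast, and DUSP5 and DUSP6 were tested because of their ventral values. Nothing further is therefore read from the shares.

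**Figure D3:**
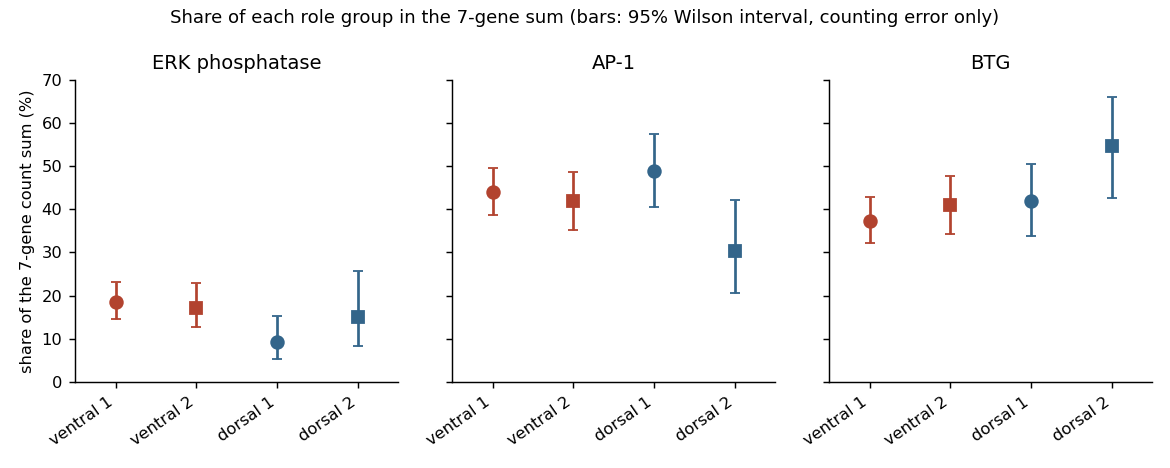
Share of the ERK phosphatase, AP-1 and BTG genes in the summed counts of the 7 genes, in percent, for each library, with 95% Wilson intervals that cover counting error only. The intervals of the libraries overlap for the phosphatases, and the AP-1 share lies both above and below the ventral libraries in the dorsal ones.

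Endothelial transcripts, taken as a sum, differed between the sides in the same direction as the 7 genes. The summed pan-endothelial list, 22 rows of which 18 had a count and none is one of the 7 genes, stood at 1374 and 1333 CPM in ventral, against 483 and 506 CPM in dorsal libraries. Not all of its genes followed the sum. Of them, robo4, plvapa, ERG and RADIL were at 0 in all libraries. The junction gene cdh5 gave 2 and 1 counts in ventral, against 4 and 0 in dorsal libraries, and ecscr 0 and 1 against 2 and 1. FLI1 overlapped between the sides, at 83.0 and 88.0 CPM in ventral, against 0 and 97.3 CPM in dorsal libraries. In a sorted bulk sample, fewer cells of a type and less RNA per cell cannot be told apart. Per 100 pan-endothelial counts, DUSP6 stood at 23.5 and 22.6 in ventral, against 14.3 and 23.1 in dorsal libraries, and JUNB at 24.8 and 28.3 in ventral, against 21.4 and 26.9 in dorsal libraries. DUSP5, FOS and FOSL2 overlapped between the sides on this scale as well.

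Most genes were lower in the ventral libraries on that scale. Of the 1399 genes tested, 1204, or 86.1%, had both ventral libraries below both dorsal ones, and 14, or 1%, had both above. BTG1 and BTG2 were among the 1204, and nothing about them is read from that. BTG2 stood at 43.0 and 50.9 per 100 pan-endothelial counts in ventral, against 62.5 and 84.6 in dorsal libraries. BTG1 stood at 35.6 and 27.4 in ventral, against 35.7 and 53.8 in dorsal libraries. BTG1 fell short of overlap by a small margin in ventral library 1. With the pan-endothelial sum as library size, the log2 folds were 0.40 ± 0.49 for DUSP6, 0.39 ± 0.67 for DUSP5, 0.17 ± 0.44 for JUNB and 0.039 ± 0.49 for FOSL2. FOS stood at -0.46 ± 0.38, BTG1 at -0.44 ± 0.39 and BTG2 at -0.62 ± 0.34 (SE). The median log2 fold of all 1399 genes was -1.49 on this scale, and all 7 genes lay above it. Since the 7 genes were picked on this contrast, nothing is read from that. BTG2, FOS and BTG1 lay between 1 and 2 SE below 0, and the other 4 genes lay within 1 SE of 0. The pan-endothelial sum itself rested on 149 and 106 counts in ventral, against 56 and 26 in dorsal libraries.

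**Figure D4:**
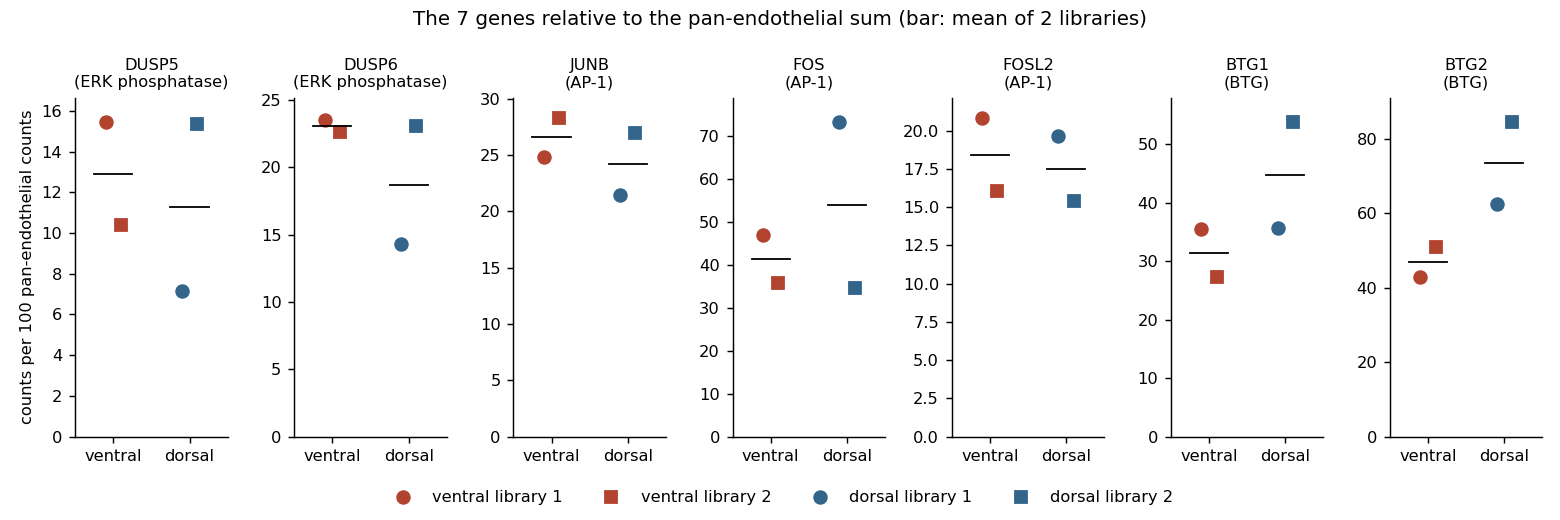
Counts of the 7 genes per 100 counts of the summed pan-endothelial list in each library, with a bar at the mean of 2 libraries. The sides overlap for DUSP5, DUSP6, JUNB, FOS and FOSL2, and both ventral libraries lie below both dorsal libraries for BTG1 and BTG2.

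Scaled to the ERCC spike-ins, synthetic RNAs added at extraction, the order of the sides was as in CPM for all 7 genes. Of all 1399 genes tested, 226, or 16.2%, had both ventral libraries above both dorsal ones on this scale, and all genes had a median log2 fold of 0.22. FOS came closest to overlap, at 7.23 and 4.62 counts per 1000 ERCC counts in ventral, against 4.42 and 0.821 in dorsal libraries. Gene counts per ERCC count were 11.2 and 9.68 in ventral, against 12.5 and 4.68 in dorsal libraries, and dorsal library 2 was lowest. The highest spike-in counts lay near the ceiling of identifiers, so ratios to the spike-ins are approximate.

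Markers of other cell types were also uneven. The epidermal list, 17 of 21 rows with a count, summed to 4188 and 1597 CPM in ventral, against 759 and 1265 CPM in dorsal libraries, with cldne and agr1 among its rows at 0. Its rows krt4, cyt1l, krt17, cldni and krt91 gave 58, 65, 25, 14 and 9 counts in ventral library 1 and 0 in the other libraries. Of its rows that passed the filter, krt8, krt18a.1 and pfn1 had both ventral libraries above both dorsal ones in CPM. By contrast icn had both below, and epcam overlapped. Of all 1399 genes tested, 19.4% had both above and 19.5% both below. The filter's 106 CPM was reached by krt18a.1 in fewer than 2 dorsal libraries and by icn in dorsal libraries only. Each was thus tested because of its higher side, and nothing is read from these rows. The mural and mesenchymal list, 7 of 13 rows with a count and acta2 and PDGFRA at 0, summed to 1079 and 754 CPM in ventral, against 380 and 234 CPM in dorsal libraries. TAGLN supplied 59 and 52 of its counts in ventral, against 19 and 7 in dorsal libraries. Without TAGLN the libraries overlapped, at 535 and 101 CPM in ventral, against 216 and 97.3 CPM in dorsal libraries. The erythroid list, all 10 rows with a count, summed to 6411 and 6061 CPM in ventral, against 9389 and 6501 CPM in dorsal libraries. The myeloid list, 9 of 20 rows with a count and MPEG1 and ptprc at 0, summed to 240 and 138 CPM in ventral, against 25.9 and 623 CPM in dorsal libraries. The part of these cells in the values of the 7 genes, which many cell types express, was not tested. Muscle and neural lists gave at most 17 counts per library.

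Among the wider AP-1 family, 19 rows matched, 12 had a count and 6 passed the filter, JUNB, FOS and FOSL2 among them. None of the other 3 passed edgeR's test, and 1 of them, maff, had an unadjusted p under 0.05. The stress gene maff, a small MAF protein that can pair with FOS, gave 12 and 13 counts in ventral, against 6 and 0 in dorsal libraries, a log2 fold of 1.95 ± 0.77 (SE; adjusted p = 0.346 in edgeR's test). ATF3, a stress-induced partner of JUN proteins, gave 14 and 11 in ventral, against 6 and 7 in dorsal libraries, a log2 fold of 0.71 ± 0.61 (adjusted p = 0.792, edgeR). In CPM the sides did not overlap for maff, and they did for ATF3. Only the ventral libraries of maff reached the filter's 106 CPM, so it was tested because of them. Nothing is therefore read from its p-values or its lack of overlap. ATF3 reached 106 CPM in both ventral libraries but, at 51.8 and 136 CPM, in fewer than 2 dorsal ones. It too was tested because of its ventral values, and nothing is read from its log2 fold. By contrast atf4b, a regulator of amino acid and unfolded protein stress, stood at -0.48 ± 0.27 (adjusted p = 0.561, edgeR), with 49 and 24 counts in ventral, against 66 and 25 in dorsal libraries.

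Below the filter, 13 AP-1 rows held 22 and 12 counts in ventral, against 4 and 3 in dorsal libraries, and 7 of these rows were at 0. FOSB gave 6 and 3 counts in ventral, against 1 and 0 in dorsal libraries, a ratio of 8.01 (counting interval 1.11 to 351). JUN gave 5 and 6 in ventral, against 2 and 2 in dorsal libraries, a ratio of 2.45 with an interval from 0.725 to 10.5. Of the other rows with a count, FOSL1 gave 4 and 1, fosaa 2 and 1 and JDP2 5 and 1 in ventral libraries, against 0 and 0, 0 and 0, and 0 and 1 in dorsal libraries, and BATF3 gave a single dorsal count. JUND was at 0 in all libraries. Pooled over the 13 rows the ratio was 4.32 (counting interval 1.89 to 11.6), and of the single genes FOSB alone had an interval above 1. Neither the pooled ratio nor the share of such rows was taken over all rows below the filter. Nothing particular to AP-1 is therefore read from either. All rows of the list with a count are named here, outside the rule for named genes.

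Other genes of the ERK feedback list, which holds negative regulators and ERK-responsive ETS factors, were scarcely detected among the matched rows. The list of 34 symbols had 17 matched rows, 13 with a count, and DUSP5 and DUSP6 were the 2 that passed the filter. Symbols without a matched row cannot be read as undetected. The other 15 rows together held 20 and 12 counts in ventral, against 15 and 6 in dorsal libraries, a pooled ratio of 1.36 (counting interval 0.758 to 2.47). SPRY4, a Sprouty inhibitor of receptor signalling that is a common ERK target, gave 6 and 0 counts in ventral, against 7 and 1 in dorsal libraries. The ERK-responsive ETS factors etv5a and etv5b gave 1 and 0 and 1 and 2 counts in ventral and none in dorsal libraries, and ETV4 and SPRY2 were at 0 throughout. The interval of the pooled ratio includes 1. It also overlaps the counting intervals of DUSP5, 1.72 to 9.46, and DUSP6, 2.07 to 7.27. Those 2 genes were picked on this contrast, so no difference from them is read.

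Of the relatives and partners of BTG1 and BTG2, the tested genes other than the pair had a median log2 fold of -0.12, against -0.033 over all genes. Of 22 matched rows 8 passed the filter, BTG1 and BTG2 among them, and none of the other 6 passed edgeR's test, while CNOT2 had an unadjusted p under 0.05. The BTG family genes tob1b and TOB1 stood at 0.44 ± 0.47 and -0.44 ± 0.35 (SE), and the poly(A)-binding protein genes pabpc1a, pabpc1b and PABPC4 at -0.20 ± 0.18, -0.046 ± 0.32 and -0.013 ± 0.66. CNOT2, a subunit of CCR4-NOT, gave 2 and 4 counts in ventral, against 13 and 7 in dorsal libraries, a log2 fold of -1.86 ± 0.72 (adjusted p = 0.324 in edgeR's test). Only its dorsal libraries reached the filter's 106 CPM, so CNOT2 was tested because of them and nothing is read from its p-values. For tob1b and PABPC4 fewer than 2 dorsal libraries reached 106 CPM. Both were tested because of their ventral values, and nothing is read from their log2 folds. The family member btg3, below the filter, gave 2 and 2 counts in ventral, against 11 and 2 in dorsal libraries, and was chosen for mention after its values were seen.

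The CCR4-NOT subunits, a grouping made after their values were seen, were lower in ventral libraries as a sum. Their 13 rows held 34 and 34 counts in ventral, against 74 and 31 in dorsal libraries, or 314 and 428 CPM in ventral, against 639 and 603 CPM in dorsal libraries. The pooled ratio was 0.576, with a counting interval of 0.418 to 0.789, and 9 of the 13 rows had a ratio below 1. The share of such rows among all genes was not taken, so nothing is read from that count. Per ERCC count the pooled ratio was 0.732 and the libraries overlapped, at 3.51 and 4.14 counts per 1000 ERCC counts in ventral, against 7.98 and 2.83 in dorsal libraries.

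Most other immediate early genes had too few counts for the gene test. The 31 rows of that list below the filter, 27 with a count, held 120 and 60 counts in ventral, against 49 and 32 in dorsal libraries. That was 1107 and 754 CPM in ventral, against 423 and 623 CPM in dorsal libraries, a pooled ratio of 1.98 (counting interval 1.51 to 2.60). For 4 of the 31 rows the counting interval of the single gene lay above 1, and for 0 below. Neither the same share nor a pooled ratio was taken over all rows below the filter, so nothing is read from that count or ratio. These 4 rows are named after their values were seen. The kinase gene SIK1 gave 18 and 4 counts in ventral, against 4 and 1 in dorsal libraries, and sgk1, another kinase gene, 9 and 6 in ventral, against 0 and 2 in dorsal libraries. Of 2 rows for ZFP36L1, which speeds mRNA decay, 1 gave 7 and 3 in ventral, against 1 and 0 in dorsal libraries, and EGR3 gave 3 and 3 in ventral and no dorsal count. The summed direction of the rows below the filter was thus that of the 7 genes, with the larger part of the ventral counts of SIK1 in library 1. Over all 35 matched rows of the list the sides overlapped. The sums were 1919 and 1509 CPM in ventral, against 1251 and 1557 CPM in dorsal libraries, a pooled ratio of 1.30.

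Over all 6 pathway lists, 19 genes other than the 7 were tested, of which 4 were immediate early genes. Their log2 folds ran from -2.37 to 1.95, with 8 above 0 and 11 below. Of all genes tested, 46.1% were above 0. KLF6, also an immediate early gene, was tested but missed by the symbols searched, and stood at 1.13 ± 0.61 (log2 fold, SE). It gave 22 and 9 counts in ventral, against 12 and 1 in dorsal libraries. Only the ventral libraries of KLF6 reached the filter's 106 CPM, so it was tested because of them and nothing is read from its fold. None of the 19 passed edgeR's test. In DESeq2 and limma-voom no gene of the whole table passed, so nothing about the 19 is read from those tools. At an unadjusted p under 0.05 in edgeR's test, 105 of all 1399 genes were higher and 65 lower. Of the 19, maff was higher and mcl1b and CNOT2 were lower. Each of them reached the filter's 106 CPM only in the libraries of its higher side and was tested because of those. Nothing is therefore read from their p-values or directions. The survival gene mcl1a gave 489 and 465 CPM in ventral, against 483 and 545 CPM in dorsal libraries, and IER5 stood at 0.39 ± 0.38 (log2 fold, SE). The mcl1a paralogue mcl1b gave 2 and 3 counts in ventral, against 19 and 6 in dorsal libraries, a log2 fold of -2.37 ± 0.68 (adjusted p = 0.172, edgeR).

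The chaperone genes HSPA8 and HSP90AB1 and the ubiquitin gene UBB stood at -0.16 ± 0.20, 0.12 ± 0.17 and -0.26 ± 0.22 (log2 fold, SE). HSPA8 gave 3598 and 3307 CPM in ventral, against 3426 and 4165 CPM in dorsal libraries, and the sides overlapped. In the ERK cascade upstream of the phosphatases, the adaptor gene GAB1 stood at -0.52 ± 0.30 and the phosphatase gene ptpn11b at 0.093 ± 0.64, the only 2 of 26 matched rows that passed the filter. The cascade's rows summed to 102 and 77 counts in ventral, against 115 and 47 in dorsal libraries, a pooled ratio of 0.983.

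Genes with the most similar profile were found by the Euclidean distance of centred log2 CPM over the 4 libraries, as a description. Closest to the mean of DUSP5 and DUSP6 were PLD3, the Notch feedback gene NRARP and the endothelial adhesion gene MCAM, at distances of 0.199, 0.230 and 0.257, where the median over all genes was 1.73. MCAM gave 29 and 21 counts in ventral, against 7 and 5 in dorsal libraries. Closest to the AP-1 mean were the BMP target ID1, capns1b and the tropomyosin gene tpm3, at distances of 0.031, 0.197 and 0.248 (median 1.41), and ID1 gave 23 and 14 counts in ventral, against 9 and 3 in dorsal libraries. Closest to the BTG mean were EBNA1BP2, calm2a and arpc4l, at distances of 0.125, 0.133 and 0.178 (median 1.17). These genes were chosen as the nearest of 1399, so nothing is read from distances below the median. All of them but EBNA1BP2 reached the filter's 106 CPM in fewer than 2 dorsal libraries, and so were tested because of their ventral values. Among the 7 genes the closest pair was DUSP6 and JUNB at 0.29, which crosses the roles, and the most distant was DUSP5 and FOS at 1.27.

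Leaving out dorsal library 1 narrowed the differences of all but the FOS genes. Without it the log2 folds were 1.06 for DUSP5, 1.28 for DUSP6, 1.25 for JUNB, 0.53 for BTG1 and 0.43 for BTG2, while FOS stood at 1.55 and FOSL2 at 1.56. Without dorsal library 2 they were 2.47 for DUSP5, 2.29 for DUSP6, 1.91 for JUNB, 1.45 for BTG1 and 1.2 for BTG2, against 0.81 for FOS and 1.54 for FOSL2. The order of FOS relative to the phosphatases therefore depended on which dorsal library was used. All 28 of these leave-one-out folds, counting those without a ventral library, were above 0. Since the genes were picked on this contrast and the sides did not overlap in CPM, nothing is read from that count.

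**Figure D5:**
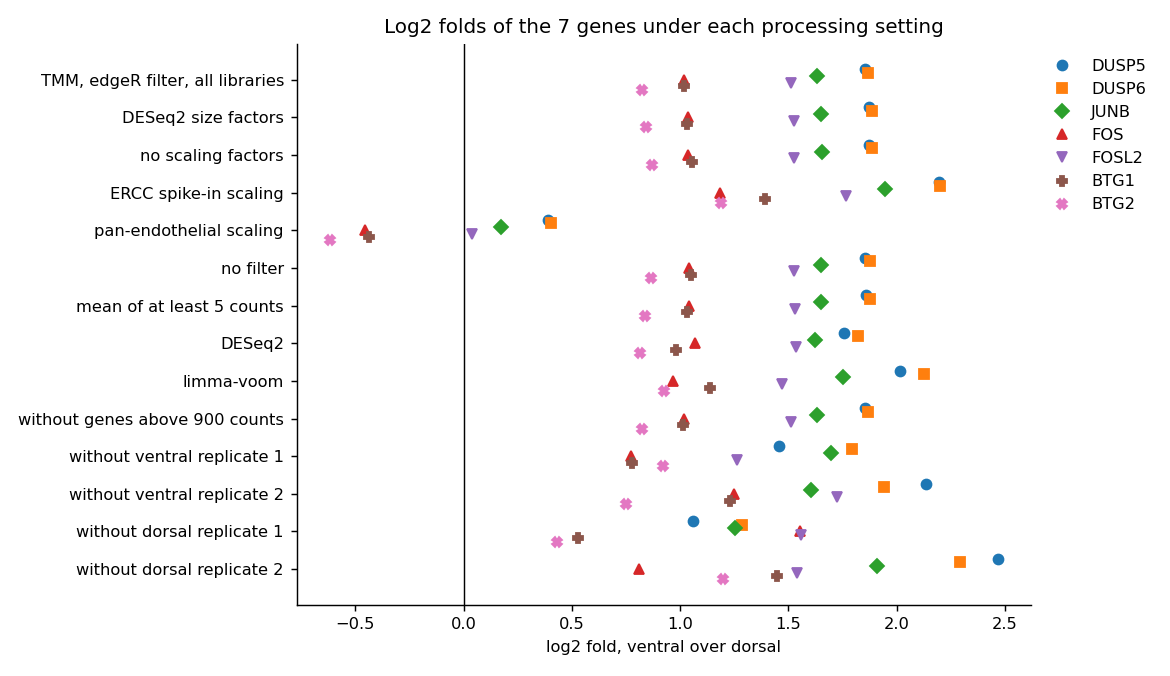
Log2 fold, ventral over dorsal, of the 7 genes under each processing setting, one row per setting. The values stay above 0 in every row but that of pan-endothelial scaling, where FOS, BTG1 and BTG2 lie below 0, and FOS moves past DUSP5 and DUSP6 without dorsal library 1.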

How the data were processed

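CEL-Seq libraries with ERCC spike-ins and unique molecular identifiers were made from sorted red cells, per the labels' protocols. The submitters' processing notes list CASAVA 1.8, Bowtie2 2.1.0, HTSeq 0.5.4p3 and the genome build Zv9 without saying what each did. Values are whole-number counts for each Ensembl gene, as the authors deposited them. Whether these are reads or identifiers was not stated. Rows that name no gene, 96.4% to 97.4% of each column, stayed out of library sizes and tests. Symbols came from a table that named 20769 of 32434 identifiers. It does not tell duplicated zebrafish copies such as junba and junbb apart, and no coordinates of build Zv9 were at hand.

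Ventral was compared with dorsal with edgeR 4.0.16 in R 4.3.3 (quasi-likelihood F test, 2-sided, TMM, edgeR's expression filter, Benjamini-Hochberg over 1399 genes), tested on simulated data. The fit has 2 residual degrees of freedom. The SE given for edgeR is the absolute log2 fold divided by the square root of the F statistic. Pooled count ratios have exact binomial intervals, which cover counting error only. DESeq2 1.42.0, limma-voom 3.58.1, other scalings and filters and leaving out each library were alternatives. The 7 genes and all gene lists were chosen with earlier results of these data known. Named genes were the 7, all tested genes of the AP-1, ERK feedback and BTG lists, the 3 most abundant tested genes of the other pathway lists, and 3 nearest profiles per role. Genes below the filter are named outside this rule, with their values known. Replicates were numbered in accession order.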

Additional observations from a re-analysis of the deposited data

How the results depend on the processing

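Over 13 alternatives, 88 of 91 log2 folds of the 7 genes were above 0. The 3 below 0 were FOS at -0.46, BTG1 at -0.44 and BTG2 at -0.62, all with pan-endothelial scaling, which lowers every gene alike. Nothing is read from the number above 0, because the genes were picked on this contrast and did not overlap in CPM. With ERCC scaling the folds were 2.19 for DUSP5, 2.20 for DUSP6, 1.95 for JUNB, 1.18 for FOS, 1.77 for FOSL2, 1.39 for BTG1 and 1.19 for BTG2. With DESeq2's size factors, no scaling factors, other filters, other tools or without genes near the ceiling, 7 alternatives in all, folds ranged from 1.75 to 2.02 for DUSP5, 1.82 to 2.12 for DUSP6, 1.62 to 1.75 for JUNB, 0.97 to 1.07 for FOS, 1.47 to 1.54 for FOSL2, 0.98 to 1.14 for BTG1 and 0.81 to 0.93 for BTG2. The SE in DESeq2 was above that in edgeR for all 7 genes. It was 0.95 for DUSP5 and 0.74 for DUSP6 in DESeq2, against 0.61 and 0.42 in edgeR. DESeq2 reports its SE directly, while that of edgeR was derived from the F statistic, so they are not the same measure. As a description, DUSP6 was among the 43 of 12123 genes called higher without a filter. Since it was picked on this contrast, nothing is read from that call. Without ventral replicate 2, the log2 fold of FOS was 1.25.

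Among all genes, 6 were called higher and 0 lower. Higher calls numbered 14 without scaling factors, 18 without the 9 genes above 900 counts, 43 without a filter, and 0 with ERCC scaling, DESeq2 or limma-voom. Lower calls numbered 4 without a filter and 1093 with pan-endothelial scaling. At an unadjusted p under 0.05, 105 genes were higher and 65 lower in edgeR, 51 and 7 in DESeq2 and 102 and 76 in limma-voom. Leaving out 1 library gave 0 to 46 higher and 1 to 5 lower calls. ERCC scaling moved the median log2 fold of all genes to 0.22 and pan-endothelial scaling to -1.49. The causes were not tested. No paired analysis was run, because the labels do not say which ventral and dorsal libraries belong together.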
